A study of Homo sapiens with 2 samples.

Results

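The genes described here are 10 genes of HLA class II presentation, chosen by symbol: HLA-DRA, HLA-DRB1, HLA-DPA1, HLA-DPB1, HLA-DQA1, HLA-DQB1, HLA-DMA, HLA-DMB, CD74 and CIITA. They are 10 of the 60616 genes listed, and all 10 were found. Bulk RNA sequencing was performed on HSC-3 cells, an established line from a human squamous cell carcinoma of the tongue. One culture condition was the vehicle, DMSO at 0.1%, and the other was FIN56 at 1 µM for 48 h, a small molecule that induces ferroptosis (iron-dependent death by lipid peroxidation) through loss of the lipid peroxide reducing enzyme GPX4. Both conditions shared the cell line and its DMEM medium with 5% serum, and the labels give a treatment time for FIN56 only. The study applied FIN56 at a sublethal dose and asked which transcripts ferroptotic stress raises, among them immune genes.

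Class II molecules are surface heterodimers of an alpha and a beta chain (DR, DP or DQ) that show peptides from endocytosed proteins to CD4+ T cells. New dimers are held in the endoplasmic reticulum by the invariant chain, encoded by CD74, which blocks the peptide groove and steers them to endosomes. There, proteases trim the invariant chain to a short fragment, and HLA-DM, a dimer of the HLA-DMA and HLA-DMB products, exchanges that fragment for a peptide. CIITA is the coactivator that switches on class II promoters without binding DNA itself, by docking on the RFX, CREB and NF-Y proteins assembled there. Professional antigen-presenting cells make CIITA constitutively, whereas epithelial cells usually make class II after interferon gamma.

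There was 1 library per condition, so no test between conditions could be made and no value below carries a replicate error. The libraries held 70184517 (DMSO) and 73062209 (FIN56) expected counts, the reads that the counting program assigned to genes, and 3 counts, the floor used for a gene with none, corresponded to 0.0427 and 0.0411 CPM, counts scaled to the library total. Levels are given as TPM or FPKM, which are both scaled for gene length and library size. The change is the ratio of FPKM values, FIN56 over DMSO, for the 24454 genes above 0 in both libraries, read against 1.5 and its inverse. The ratio of expected counts per total is set beside it with an exact 95% Clopper-Pearson interval. That interval covers counting error only, and it compares these libraries rather than the conditions. Reads lack molecular identifiers and may repeat the same molecule, so the interval may be too narrow even for counting error. It also leaves out error in assigning reads to genes. All 7 squamous epithelial markers were present at a summed level of 6698 (DMSO) and 6417 (FIN56) TPM, led by KRT5 at 2078 and 1647 FPKM and KRT14 at 1410 and 1352 FPKM.

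The proximal promoters of class II genes share an X box, bound by RFX with CREB, and a Y box, bound by NF-Y. Letters that match the cores of these boxes were searched for in the available promoter sequences, and not every sequence held them. Promoter sequences from RefSeq (GRCh38.p14) were matched by symbol for 8 of the 10 genes, with HLA-DRA and CIITA not matched. In the windows below, bases that match the Y box core ATTGG or the X box core (AG, any 2 bases, AC, any 2 bases, ATG), on either strand, are in capitals. The stretches of 120 bases run from 130 to 11 bases before the RefSeq start, and 30 bases around the Y box core are given for CD74 and HLA-DMA.
HLA-DRB1, chr6:32589859-32589978, minus strand: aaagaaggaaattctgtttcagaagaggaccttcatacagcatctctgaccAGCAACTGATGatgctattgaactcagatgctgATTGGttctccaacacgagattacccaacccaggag
HLA-DRB5, chr6:32530298-32530417, minus strand: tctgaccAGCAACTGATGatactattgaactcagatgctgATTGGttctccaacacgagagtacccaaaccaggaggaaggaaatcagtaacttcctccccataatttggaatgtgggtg
HLA-DMB, chr6:32941039-32941158, minus strand: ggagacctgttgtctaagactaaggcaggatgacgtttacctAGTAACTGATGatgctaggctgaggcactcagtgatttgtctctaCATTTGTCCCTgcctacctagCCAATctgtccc
HLA-DQA1, chr6:32637276-32637395, plus strand: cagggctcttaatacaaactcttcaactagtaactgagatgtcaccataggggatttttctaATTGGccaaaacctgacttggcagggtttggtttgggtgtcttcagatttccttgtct
CD74, chr5:150412946-150412975, minus strand: ggccctgggcagCCAATgggatcgtgctgg
HLA-DMA, chr6:32953159-32953188, minus strand: tacgcttctctgATTGGtttagacaaaatg

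In the 250 bases before the start, the Y box core stood in 7 of the 9 windows of these 8 genes, whose remaining 2 windows both belong to HLA-DPA1. It stood in 32.0% of the 35116 RefSeq promoters as well, so the letters alone are common. The X box core stood in 4 windows, those of HLA-DRB1, HLA-DQB1, HLA-DMB and HLA-DMA, against 2.18% of all promoters. An X box core with a Y box core after it within 30 bases stood in 3 windows, those of HLA-DRB1 (22 bases between), HLA-DQB1 (22 bases) and HLA-DMA (23 bases), and in 29 promoters, or 0.0826%, overall. The X box letters were chosen after the class II windows had been seen, so these shares are a description only. A window with no match says only that these letters are not in it. Annotated exons on the same strand overlap the 120-base stretches of CD74, HLA-DQB1, HLA-DMA and both HLA-DPA1 windows.

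The class II genes of HSC-3 cells spanned a wide range of levels that was nearly the same in both libraries. CD74 was far the most abundant, the DR genes and CIITA followed at low levels, the DM genes were lower still, and the DP and DQ genes were at or near 0. None of the 6 genes with at least 10 counts in both libraries (CD74, HLA-DRB1, CIITA, HLA-DRA, HLA-DMA and HLA-DMB) reached 1.5 or its inverse. The summed expected counts of all 10 genes were 10960 in DMSO and 11572 in FIN56, a ratio of 1.01 per total (95% counting interval 0.988 to 1.04). In bulk RNA, more cells that express a gene and more RNA per cell cannot be told apart. CD74 held 81.0% and 82.2% of those counts. Without CD74 the sums were 2081 and 2063, a ratio of 0.952 (0.896 to 1.01), and those of the 8 HLA genes were 1065 and 1166, a ratio of 1.05 (0.967 to 1.14).

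**Figure D1:**
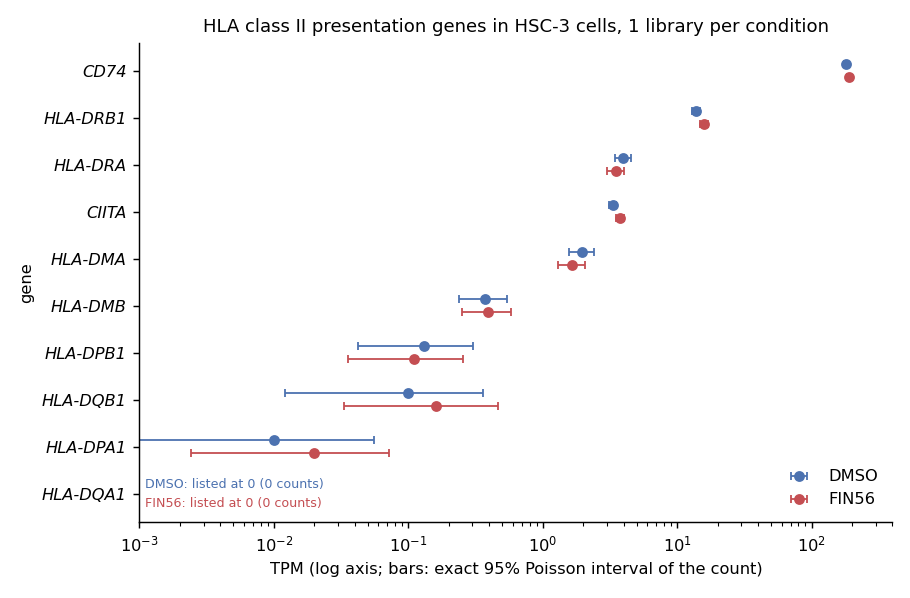
Level of each class II presentation gene in TPM (log axis) in the DMSO and FIN56 libraries, with the exact 95% Poisson interval of its count. CD74 sits at 179 and 189 TPM, HLA-DRB1 at 13.9 and 15.9, HLA-DRA, CIITA and HLA-DMA between 1.65 and 3.96, and the other genes below 1 TPM, with HLA-DQA1 at 0 in both.

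CD74 (ENSG00000019582) lies on chromosome 5, at 150401637 to 150412969 on the minus strand of GRCh38, and its canonical transcript has 9 exons. It was measured at 119.82 FPKM in DMSO and 123.43 FPKM in FIN56. Its FPKM ratio was 1.03 and its count ratio 1.03 (0.999 to 1.06), from 8879 and 9508 expected counts. The invariant chain transcript therefore did not differ beyond its counting interval. Its expected counts of 8879.31 and 9508.34 were not whole numbers. In TPM it stood at 179 (95% Poisson interval 175 to 183) and 189 (185 to 193), above 97.0% and 97.1% of the genes detected in each library. No stretch of 50 bases of its canonical transcript occurred in another annotated gene.

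Among the members that encode DR, DP or DQ chains, only HLA-DRA and HLA-DRB1 were above 1 TPM. HLA-DRA (ENSG00000204287, chromosome 6, 32439878 to 32445046, plus strand, 5 exons) encodes the nearly invariant alpha chain of HLA-DR. It had 211 counts in DMSO and 190 in FIN56, or 2.65 and 2.29 FPKM. Its FPKM ratio was 0.864 and its count ratio 0.865 (0.707 to 1.06), which includes 1. HLA-DRB1 (ENSG00000196126, chromosome 6, 32577902 to 32589848, minus strand, 6 exons) encodes the polymorphic beta chain of the same dimer. It had 735 counts in DMSO and 861 in FIN56, or 9.26 and 10.42 FPKM. Its FPKM ratio was 1.13, and its count ratio of 1.13 had an interval of 1.02 to 1.24, the only one of the 6 genes above 1. Among all 17372 genes with at least 10 counts in both libraries, 31.3% had an interval above 1.

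Of the DR pair, the beta chain gene HLA-DRB1 was listed at a higher level than the alpha chain gene in both libraries. HLA-DRB1 exceeded HLA-DRA 3.50-fold in DMSO and 4.55-fold in FIN56, as ratios of TPM. The ratio of these balances, computed from the counts, was 1.3 (1.04 to 1.63), an interval of counting error between 1 library and 1 other that gives no test of FIN56. CD74 exceeded HLA-DRA 45.3-fold in DMSO and 53.9-fold in FIN56, and the interval of that change, 0.971 to 1.46, includes 1. HLA-DRB1 is uncertain as a level, since 9.97% of the stretches of 50 bases in its canonical transcript also occur in other genes, mostly in HLA-DRB5. HLA-DRA shares none. These shares cover annotated transcripts only. Whether HSC-3 carries HLA-DRB3 or HLA-DRB4, which had no row, and where their reads would be counted, was not examined.

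Another DR beta chain gene, HLA-DRB5, was close to absent. When the upstream sequences were aligned at the X box core, the 120 bases printed above for HLA-DRB1 matched HLA-DRB5 at 116 bases (96.7%), over a stretch that begins 44 bases before the one printed for HLA-DRB5. It had 13 counts in DMSO and 26 in FIN56, or 0.16 and 0.31 FPKM. Its FPKM ratio was 1.94, but the interval of its count ratio, 0.952 to 4.07, includes 1. HLA-DRB1 exceeded HLA-DRB5 57.8-fold in DMSO and 33.9-fold in FIN56 as ratios of TPM, and the change between these, 0.586-fold, had an interval of 0.274 to 1.19. The promoter letters compared are those of the reference genome, and the unequal transcript levels are those listed for HSC-3. Whether HSC-3 carries HLA-DRB5 was not examined, nor were allele differences between HSC-3 and the reference. Of the HLA-DRB5 transcript stretches, 8.49% are shared with HLA-DRB1.

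The DP and DQ chains, which form the other classical class II dimers, held 8 counts together in DMSO and 10 in FIN56, a ratio of 1.20 (0.427 to 3.50). HLA-DPA1 (ENSG00000231389, chromosome 6, 33064569 to 33080775, minus strand, 6 exons), the DP alpha chain, had 1 count in DMSO and 2 in FIN56. HLA-DPB1 (ENSG00000223865, chromosome 6, 33075990 to 33089696, plus strand, 6 exons), the DP beta chain, had 5 in each, at 0.09 and 0.07 FPKM. HLA-DQB1 (ENSG00000179344, chromosome 6, 32659467 to 32668383, minus strand, 5 exons), the DQ beta chain, had 2 in DMSO and 3 in FIN56, at 0.06 and 0.11 FPKM. A change in any of these genes was not detectable at this depth. HLA-DQA1 (ENSG00000196735, chromosome 6, 32628179 to 32647062, plus strand, 5 exons), the DQ alpha chain, had 0 counts in both libraries, under the floor of 3 counts, which is 0.0427 CPM in DMSO and 0.0411 CPM in FIN56. Its promoter window, printed above, holds the Y box core at 68 bases before the start and no match to the X box core.

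HLA-DQB1 was the only member past 1.5, with an FPKM ratio of 1.83. Its counts of 2 and 3 gave a ratio of 1.44 with an interval of 0.165 to 17.3. Across all genes above 0 in both libraries, 14.7% reached 1.5 and 17.3% reached its inverse, so 1 of 9 members higher and 0 of 9 lower is not above the background in either direction. With at least 10 counts in both libraries, 7.62% of genes were higher and 11.1% lower, against 0 of 6 members in each direction. The median log2 FPKM ratio of the 9 members was 0, with a range of −0.36 to 0.87, and that of all genes was also 0. Over the 6 members with at least 10 counts it was 0.021, against 0.013 over all such genes. Genes with 5 to 10 counts in both libraries together spread from −2.22 to 2.31 on the log2 scale (5th to 95th percentile), and 68.7% of them were past a threshold, whereas genes with 10000 to 20000 counts, where CD74 lies, spread from −0.42 to 0.47.

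**Figure D2:**
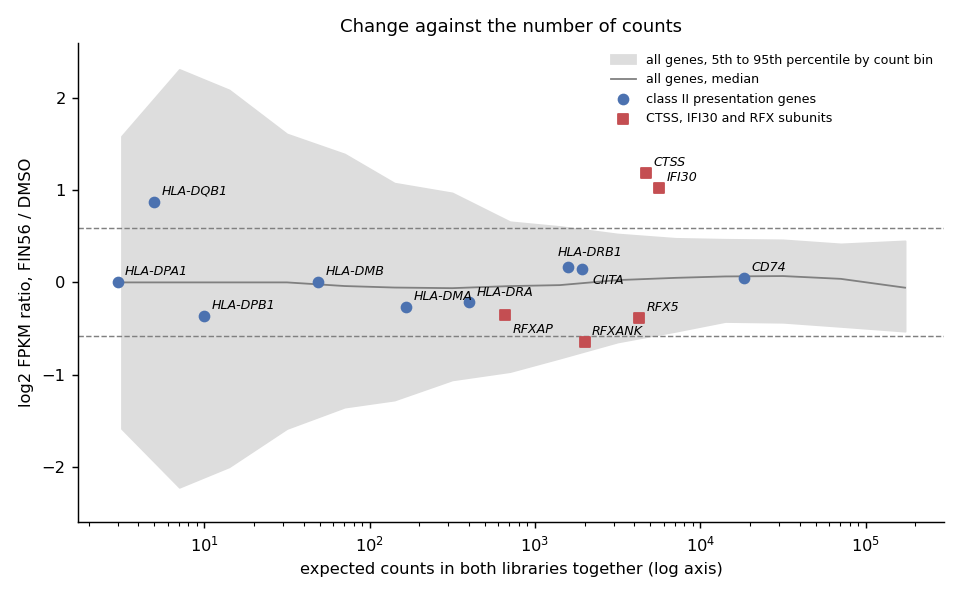
log2 FPKM ratio, FIN56 over DMSO, of each gene against its expected counts in both libraries together (log axis), with the 5th to 95th percentile (grey band) and median of all genes in each count bin and dashed lines at 1.5 and its inverse. Every class II presentation gene with a ratio lies inside the band, whereas CTSS and IFI30 lie above it at 2.27-fold and 2.03-fold.

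**Figure D3:**
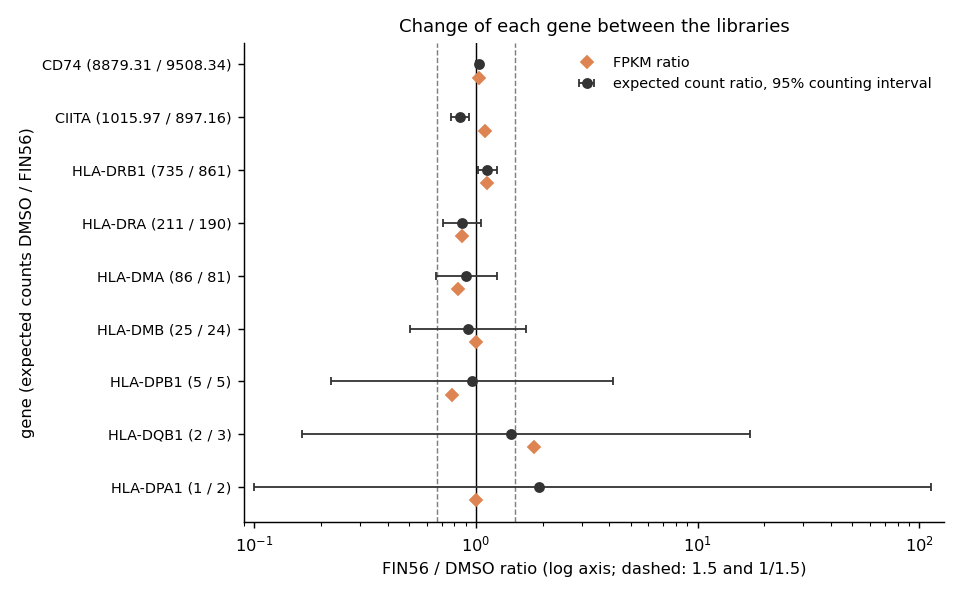
Ratio FIN56 over DMSO (log axis) of expected counts per total, with the exact 95% counting interval, and of FPKM, for the 9 members with counts; counts are given beside each name as DMSO then FIN56. The intervals of HLA-DRB1 (1.02 to 1.24) and CIITA (0.774 to 0.929) exclude 1, and those of the DP and DQ genes span more than the plot's thresholds on both sides.

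The HLA-DM genes, whose products load the peptide, were low and showed no change beyond counting error. HLA-DMA (ENSG00000204257, chromosome 6, 32948613 to 32969094, minus strand, 5 exons) had 86 counts in DMSO and 81 in FIN56, or 1.3 and 1.08 FPKM. Its FPKM ratio was 0.831 and its count ratio 0.905 (0.660 to 1.24). HLA-DMB (ENSG00000242574, chromosome 6, 32934629 to 32941028, minus strand, 6 exons) had 25 counts in DMSO and 24 in FIN56, at 0.25 FPKM in both, with a count ratio of 0.922 (0.504 to 1.68). The alpha chain exceeded the beta chain 5.27-fold in DMSO and 4.23-fold in FIN56 as ratios of TPM, and the interval of the change by counts, 0.494 to 1.95, includes 1. An annotated readthrough gene, ENSG00000248993, shares 9.58% of the 50-base stretches of HLA-DMA and 30.1% of those of HLA-DMB, and it was listed at 0 in both libraries.

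CIITA, the coactivator, was present at a low level, and the direction of its change depended on the unit. CIITA (ENSG00000179583, chromosome 16, 10866222 to 10943021, plus strand, 20 exons) was measured at 2.22 FPKM in DMSO and 2.45 FPKM in FIN56, a ratio of 1.10. Its expected counts, also not whole, were 1016 in DMSO and 897 in FIN56, a ratio of 0.848 with an interval of 0.774 to 0.929. It was the only one of the 6 members with an interval below 1, as were 31.0% of all genes with at least 10 counts in both libraries. The effective length implied by its counts and FPKM was 6521 bases in DMSO and 5012 bases in FIN56, where the effective length of a gene is the mean over its transcripts weighted by their estimated abundance. For CIITA the FPKM ratio exceeded the count ratio 1.3-fold, more than for 97.7% of genes (median 1.00, 5th to 95th percentile 0.882 to 1.19).

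CIITA overlaps other annotated genes, and their counts are given beside it. ENSG00000280153 (chromosome 16, 10933903 to 10936280, plus strand), a provisional gene model in the annotation, holds most of the 15.2% of 50-base stretches that CIITA shares with other genes. It had 0 counts in DMSO and 28.51 in FIN56. Added to CIITA, these gave 1016 and 926 counts, a ratio of 0.876 (0.800 to 0.958). DEXI, on the opposite strand within the CIITA locus, had 1417 counts in DMSO and 1290 in FIN56. The kit marks strand, but whether the counting used it is not stated in the sources used here, so reads of CIITA and DEXI may not be told apart where they overlap. These overlapping genes were chosen after their values were seen, and their part in the unequal FPKM and count ratios of CIITA was not tested.

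**Figure D4:**
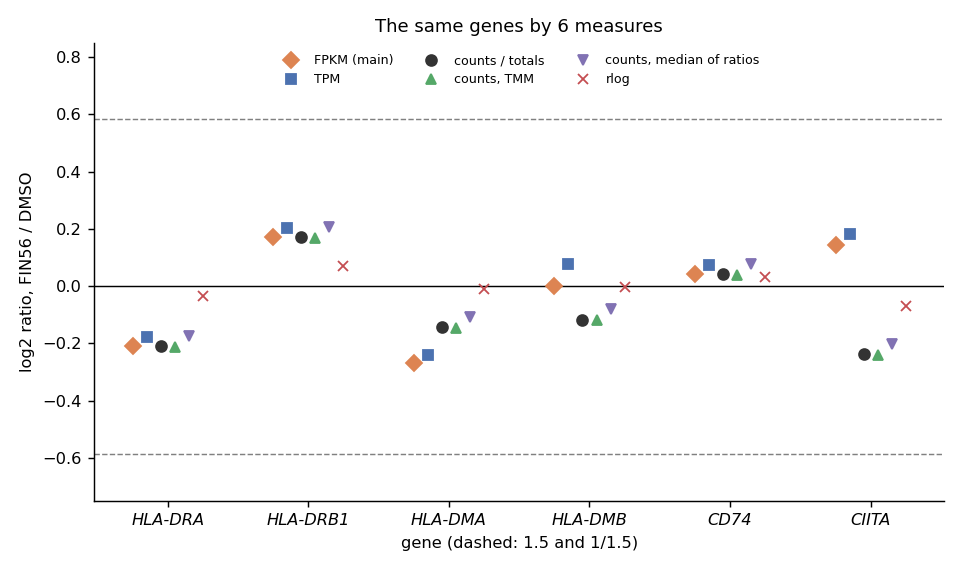
log2 ratio, FIN56 over DMSO, of the 6 members with at least 10 counts in both libraries by 6 measures: FPKM, TPM, expected counts scaled by totals, by TMM or by median-of-ratios size factors, and rlog. HLA-DRB1 and CD74 are above 0 and HLA-DRA and HLA-DMA below 0 by every measure, HLA-DMB lies on both sides of 0, and CIITA is above 0 by FPKM and TPM (up to 0.18) and below 0 by the others (down to −0.24). The 6 measures are not independent, since FPKM and TPM share a length scaling and the others start from the same counts.

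In order of TPM, the genes in DMSO ran CD74, HLA-DRB1, HLA-DRA, CIITA, HLA-DMA, HLA-DMB, HLA-DPB1, HLA-DQB1, HLA-DPA1 and HLA-DQA1. HLA-DRA and CIITA, at 3.96 TPM (3.44 to 4.53) and 3.31 TPM (3.11 to 3.52) in DMSO, were neighbours with overlapping intervals. In FIN56 they stood in the other order, at 3.50 TPM (3.02 to 4.03) and 3.75 TPM (3.51 to 4.0), again with overlap. From HLA-DMB down to HLA-DPA1, the interval of each gene overlapped that of the next. The gaps from CD74 to HLA-DRB1, from HLA-DRB1 to the pair of HLA-DRA and CIITA, from that pair to HLA-DMA, and from HLA-DMA to HLA-DMB exceeded the counting intervals in both libraries.

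Most of the remaining class II loci were nearly silent too. Of 13 listed loci, 11 had a row, and HLA-DRB3 and HLA-DRB4 were not analysed here. HLA-DOB, the beta chain of the HLA-DO dimer that restrains HLA-DM, had 41.83 counts in DMSO and 34.32 in FIN56, at 0.47 and 0.36 FPKM, with a count ratio interval of 0.480 to 1.25. At 0.71 TPM in DMSO and 0.56 in FIN56, HLA-DOB was listed above HLA-DMB (0.37 and 0.39 TPM), with overlapping intervals. HLA-DRB5 and HLA-DOB were the 2 loci above 0 FPKM in both libraries. HLA-DRB5 was past 1.5, as were 7.62% of all genes with at least 10 counts in both libraries. The other 9 loci had 0 or 1 count in each library, 5 of them 0 in both.

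Markers of leukocytes, which make class II themselves, were at 0 or low, and their part in the class II levels was not tested. PTPRC, the pan-leukocyte phosphatase, the B cell gene MS4A1, the T cell gene CD3E, and FCER1A and TYROBP had 0 counts in both libraries and are named for that. Of the 11 leukocyte markers 6 were at 0, and the summed level of the list was 6.61 TPM in DMSO and 8.84 TPM in FIN56. CD14, a lipopolysaccharide coreceptor, made most of that sum, at 3.62 and 5.15 FPKM (339 and 492 counts, count ratio 1.39, 1.21 to 1.61), followed by CSF1R at 0.47 and 0.49 FPKM (110 and 106 counts). ITGAX, named after its values were seen, was the only listed gene past a threshold, with 30 counts in DMSO and 14 in FIN56. Of all genes with at least 10 counts in both libraries, 7.62% were past 1.5 and 11.1% past its inverse, where ITGAX lay. The 3 endothelial markers summed to 0.12 TPM in each library, with VWF at 0.08 and 0.06 FPKM.

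The factors that CIITA docks on were all expressed, well above CIITA itself in most cases. Of 7 genes, 0 were past 1.5 and 1 past its inverse, against 7.62% and 11.1% of all genes with at least 10 counts in both libraries. That gene was RFXANK, an RFX subunit, at 24.89 FPKM in DMSO and 15.89 FPKM in FIN56, a ratio of 0.638. Its count ratio was 0.689 (0.629 to 0.753), which is inside the threshold. The other RFX subunits, named after their values were seen, were RFX5 at 11.77 and 8.99 FPKM (count ratio 0.708, 0.666 to 0.752) and RFXAP at 2.42 and 1.89 FPKM (count ratio 0.728, 0.621 to 0.851). CREB1 was at 27.11 and 28.19 FPKM and NFYB at 26.16 and 26.33 FPKM. By counting intervals, 2 of the 7 were above 1, 4 below and 1 included 1, against 31.3% above and 31.0% below over all genes, and the median log2 FPKM ratio was 0.0093. HLA-DRA and HLA-DRB1, whose promoters RFX binds, stood at ratios of 0.864 and 1.13 in the same libraries.

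The interferon gamma route to CIITA was expressed throughout. Of its 10 genes 0 were past 1.5 or its inverse, against 7.62% and 11.1% of all genes with at least 10 counts in both libraries. The FPKM ratios ran from 0.815 for SOCS1 to 1.43 for PRDM1, and the median log2 FPKM ratio was 0.091. IRF1, the transcription factor that acts on the CIITA promoter, was at 51.91 FPKM in DMSO and 56.08 FPKM in FIN56, with a count ratio of 1.08 (1.04 to 1.12). IFNGR1, the ligand-binding receptor chain, was at 48.5 and 50.91 FPKM. PRDM1, which encodes Blimp-1, a repressor of CIITA in plasma cells, was at 1.32 and 1.89 FPKM, with a count ratio of 1.25 (1.10 to 1.42). SOCS1, which inhibits the JAK kinases, was at 3.36 and 2.74 FPKM. Both were named after their values were seen. Counting intervals were above 1 for 5 genes, below 1 for 1 and included 1 for 4, against 31.3% above and 31.0% below over all genes.

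The endosomal list held the only genes on the lists that were past 1.5 with at least 50 counts in both libraries together. Of 11 genes 2 were past 1.5 and 0 past its inverse, against 7.62% and 11.1% of all genes with at least 10 counts in both libraries, with a median log2 FPKM ratio of 0.12. CTSS, cathepsin S, the protease that trims the invariant chain in antigen-presenting cells, had 1499 counts in DMSO and 3207 in FIN56. Its level was 15.33 FPKM and 34.8 FPKM, a ratio of 2.27, and its count ratio was 2.06 (1.93 to 2.19). IFI30, the thiol reductase GILT that opens disulfide bonds of endocytosed antigens, was at 29.38 FPKM in DMSO and 59.63 FPKM in FIN56, a ratio of 2.03, with a count ratio of 2.07 (1.96 to 2.19). All stretches of IFI30 occur in a readthrough gene as well, ENSG00000268173, which had 0 counts in DMSO and 19.83 in FIN56, and the count ratio with these added was 2.08 (1.97 to 2.20).

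Other proteases of the route differed less. CTSD, cathepsin D, was the most abundant at 214.93 FPKM in DMSO and 222.8 FPKM in FIN56, a ratio of 1.04. CTSB, cathepsin B, was at 97.17 and 135.43 FPKM, a ratio of 1.39, with a count ratio of 1.34 (1.31 to 1.37). Over the list, counting intervals were above 1 for 7 genes, below 1 for 3 and included 1 for 1, against 31.3% above and 31.0% below over all genes. CD74, the substrate of cathepsin S, had an FPKM ratio of 1.03 in the same libraries.

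CD74 also reaches the cell surface, where it is a receptor for the cytokine MIF together with CD44. MIF was at 1201 FPKM in DMSO and 1039 FPKM in FIN56, with a count ratio of 0.866 (0.854 to 0.879). CD44 was at 718 and 878 FPKM, with a count ratio of 1.10 (1.09 to 1.11). ACKR3, an atypical chemokine receptor that MIF also engages, was at 2.04 and 0.82 FPKM, a ratio of 0.402 and a count ratio of 0.460 (0.365 to 0.577). It was the only one of the 6 genes of this list past a threshold. Of all genes with at least 10 counts in both libraries, 7.62% were past 1.5 and 11.1% past its inverse. CXCR4, named for its 0 counts in both libraries, gave no ratio, and the median log2 FPKM ratio of the other 5 was −0.21.

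**Figure D5:**
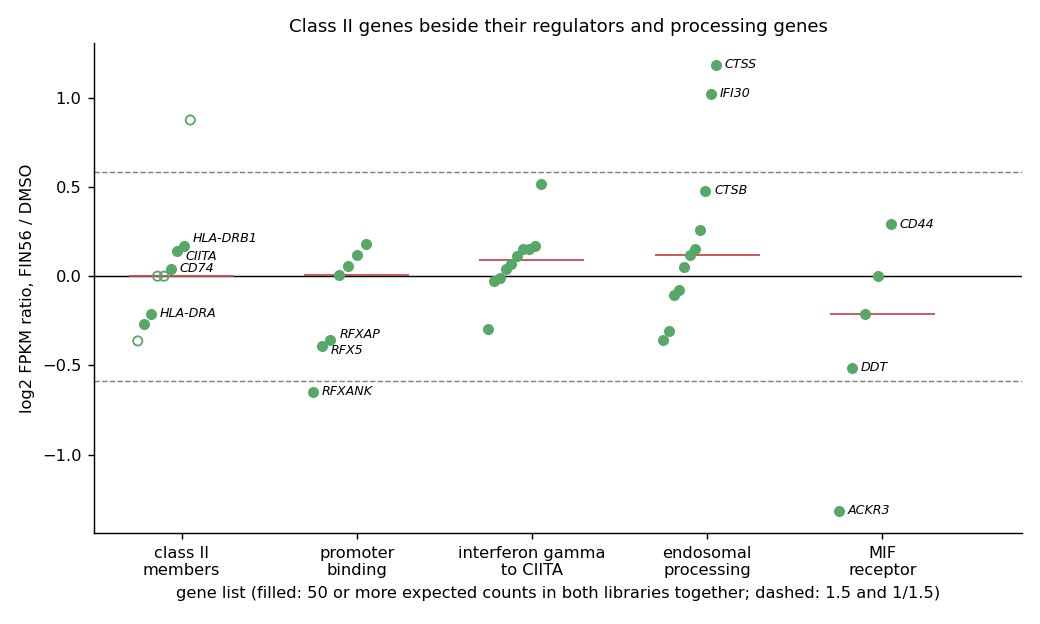
log2 FPKM ratio, FIN56 over DMSO, of the class II presentation genes and of 4 lists of related genes, 1 point per gene above 0 in both libraries (filled with at least 50 expected counts in both together), with the list median as a red line and dashed lines at 1.5 and its inverse. The class II genes center on 0 with only the open point of HLA-DQB1 (5 counts) past a threshold, whereas CTSS and IFI30 are past 1.5 and RFXANK and ACKR3 past its inverse.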

How the data were processed

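Expression was measured by RNA-seq (Illumina TruSeq Stranded mRNA kit, Trizol RNA) in 1 library of HSC-3 cells with DMSO and 1 with FIN56. The methods describe tumor samples and are taken to hold here: the authors aligned reads with STAR 2.6.1a to GRCh38 and ran RSEM 1.3.1, tools that the submitters' processing notes name too, with FastQC 0.11.7 and DESeq2 1.26.0. As deposited, the expected counts carry no normalization. The FPKM values deposited by the authors have 2 decimals, and the deposited TPM values sum to 1000000 per library. The authors' rlog table, made with DESeq2, holds log2 values. Reads were assigned on the reference haplotype, and the loss of reads from other HLA alleles was not measured.

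From these, FPKM ratios, exact Clopper-Pearson intervals on rounded counts and exact Poisson intervals of levels were computed (Python 3.11.15, SciPy 1.17.1). Count ratios and their Clopper-Pearson intervals were also run on simulated Poisson counts. Such counts hold only the error that the intervals assume, so the run checks the computation alone. edgeR 4.0.16 and DESeq2 1.42.0 gave alternative scalings only. Depth was 70184517 and 73062209 expected counts. Coordinates are those of GENCODE 44, in which 76 of 76 identifiers matched, and stretches of 50 bases were compared between its transcripts. The members and the 8 other lists (other class II loci, promoter binding, interferon gamma route, endosomal processing, MIF receptor, squamous, leukocyte and endothelial markers) were chosen with earlier results of these data known. Named were the members and, in each list, the 2 genes highest in FPKM in DMSO and those past a threshold, the FPKM ratio of 1.5 taken from the methods or its inverse, with at least 50 counts in both libraries together. Other names are marked where they stand.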

Additional observations from a re-analysis of the deposited data

How the results depend on the processing

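The count of class II presentation genes at a ratio of 1.5 or more, 1 by FPKM, was 2 by TPM and 0 by rlog, with an FPKM of at least 0.1 or of at least 1 in both libraries, with at least 10 counts in both, with 0.1 or 1 FPKM added, and at a threshold of 2. It was 1 under 3 scalings of the counts (library totals, TMM, median-of-ratios). There the gene was HLA-DPA1, with 1 and 2 counts, and not HLA-DQB1. The count past the inverse was 0 under all 11 alternatives, and the median log2 ratio, 0, ranged from −0.060 to 0.076. Of 6 measures that differ in unit or scaling, CIITA was higher in FIN56 by 2 (FPKM and TPM) and lower by 4 (the 3 count scalings and rlog), with log2 ratios from −0.24 to 0.18. HLA-DRB1 (1.05-fold to 1.15-fold) and CD74 (1.02-fold to 1.05-fold) were higher and HLA-DRA (0.864-fold to 0.977-fold) and HLA-DMA (0.831-fold to 0.992-fold) lower by all 6. Filters on low values cannot move the ratio of a single gene and are not counted among these. The 6 measures are not independent. TPM and FPKM differ by a single factor per library, and the 3 scalings and rlog start from the same counts. The number of measures on a side therefore carries little weight. The counting intervals of CD74, HLA-DRA and HLA-DMA include 1, and the ends of the ranges nearest 1 come from rlog. The summed count ratio of 1.01 was 1.01 with TMM and 1.04 with size factors, 2 alternatives added after the data had been seen. Over all genes, 3583 were past 1.5 and 4240 past its inverse by FPKM, against 7 and 16 by rlog, 1622 and 2208 with an FPKM of at least 0.1, 489 and 855 with at least 1, 1323 and 1936 with at least 10 counts, 476 and 785 with 1 FPKM added, and 2088 and 2384 at a threshold of 2. Large differences were smaller on the rlog scale than as log2 ratios of the same counts, so 1.5 is a stricter cut there. ACKR3, for example, stood at −0.19 by rlog and at −1.12 by counts scaled by totals. The median log2 ratio of the promoter binding genes, 0.0093 by FPKM, was −0.096 with counts scaled by totals. RFXANK had a log2 ratio of −0.65 by FPKM and −0.18 by rlog, and it was not past the threshold by counts. CTSS and IFI30 had log2 ratios of 1.18 and 1.02 by FPKM. By rlog they stood at 0.42 and 0.43, which is inside the threshold. By counts scaled by totals they were past it, at 1.04 and 1.05. No paired analysis was possible because the conditions had 1 library each, which also left no replicate to drop. Depth limits the DP, DQ and HLA-DMB values most.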
